A study of Mus musculus with 6 samples.

Results

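RAB genes encode small GTPases that mark the membranes of the vesicle traffic system. The 57 members were chosen by symbol alone, as every row of the deposited count table named Rab followed by a number and, where present, a letter, out of 23358 gene rows in all. The family was proposed with earlier results of the same comparison known, so its counts and p-values are given as a description and nothing about the family as a whole is read from them. RNA was measured in MC3T3-E1, an established line of pre-osteoblasts from mouse calvaria on the C57BL/6 background. The cells were confluent and were given NU7441 (a DNA-PK inhibitor) at 1 µM or the solvent DMSO, in each case for 16 h. Each group had 3 samples and no genetic change is named for either. The design text states that triplicates of independent experiments were pooled, so every p-value here rests on the spread among the deposited samples, which may be partly technical.

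Each RAB works as a switch. An exchange factor loads it with GTP on its own membrane, the GTP-bound form recruits effectors such as tethers, motors and coat regulators, and a GTPase-activating protein turns it off. GDP-bound RABs are taken off the membrane by GDI and returned to another, and they stay membrane-bound through prenyl lipids attached to cysteines at the end of the protein. Osteoblasts depend on this traffic to move collagen from the endoplasmic reticulum through the Golgi, to release matrix vesicles and enzymes, and to recycle integrins and receptors. Members are grouped here by the compartment each is best known for, although several act at more than 1.

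The lipid anchor is the feature that the whole family shares and that the choice by symbol did not use. In the GENCODE M21 annotation of mm10, all 57 members had at least 1 cysteine codon among the last 5 codons before the stop. In 48 there were at least 2 such codons and in 9 there was 1. The most frequent arrangement was cysteine, another residue, cysteine at the very end (19 members), followed by 2 adjacent terminal cysteines (14 members), and the 9 members with a single cysteine all had it at the fourth position from the end. The last 30 coding bases, stop codon included, are shown for the 8 members that passed the test described further on, for 2 close relatives that did not, and for Rab8a as a single-cysteine end. Capitals mark the cysteine codons, and each sequence reads 5′ to 3′ on the strand of the gene in mm10.
Rab36, chr10:75052500-75052529, plus strand: aagaggccgcccggcctaggcTGCTGTtaa
Rab2b, chr14:52263710-52263739, minus strand: gacatagggcctgactctggcTGCTGCtga
Rab2a, chr4:8606474-8606503, plus strand: ggacagcaggcagggggaggcTGCTGTtga
Rab6b, chr9:103181217-103181246, plus strand: ccggccagcgagggcggcTGCtccTGTtaa
Rab27a, chr9:73095427-73095456, plus strand: gagaaggagaaggggttgTGTggcTGTtga
Rab8a, chr8:72180108-72180137, plus strand: accagcttcttccggTGCagtctcctgtga
Rab5b, chr10:128679530-128679559, minus strand: cagaacaagagccagTGTTGTagcaactga
Rab11a, chr9:64716849-64716878, minus strand: ccaaaggtgcagTGCTGTcagaacatctaa
Rab11b, chr17:33747668-33747697, minus strand: aacaagctgcagTGCTGCcagagcctgtga
Rab31, chr17:65654406-65654435, minus strand: agcttgcaagccagccgtcggTGCTGCtga
Rab9, chrX:166457708-166457737, minus strand: aagcccaagccaaactcatctTGCTGTtga
Rab36, Rab2a, Rab2b, Rab31 and Rab9 end on the cysteine pair itself. In Rab5b the pair is followed by 2 further codons and in Rab11a and Rab11b by 3 before the stop. Among close relatives, aligned coding bases were identical at 75.7% between Rab2a and Rab2b, 75.7% between Rab11a and Rab11b, 78.5% between Rab6a and Rab6b, and 67.0% between Rab27a and Rab27b.

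Samples held between 47312968 and 71292628 gene counts, and the deepest and the shallowest were both DMSO samples. Of 11 osteoblast lineage markers 9 were tested, and they summed to 44321 to 46553 CPM (counts scaled to library size) in DMSO and 45269 to 46651 CPM in NU7441, nearly all from the collagens Col1a1 and Col1a2. Col1a2 and Spp1 were higher with NU7441 (log2 fold changes 0.05 and 0.25, edgeR adjusted p = 0.0238 and 5.16e-06). Alpl, Twist1 and Ibsp were lower (-0.29, -0.21 and -0.89, adjusted p = 0.00597, 0.0083 and 0.000414). These called markers were 55.6% of the 9 tested, against 30.7% of all genes called (14.1% higher and 16.6% lower). Ibsp lay at 4.89 to 14.4 CPM over all samples, and the mature osteoblast genes Bglap and Bglap2 had at most 12 counts in a sample. Markers of other cell types were not all absent. The cartilage list summed to 82.3 to 84.1 CPM in DMSO and 89.5 to 93.7 CPM in NU7441, mostly Sox9. In it Sox9 (log2 fold change 0.14, edgeR adjusted p = 0.00576) and Col2a1 (0.23, adjusted p = 0.0464) were higher and Acan was at 0. These 2 were 50% of the 4 tested, against 14.1% of all genes higher. The haematopoietic and osteoclast list summed to 106 to 114 CPM in DMSO and 112 to 118 CPM in NU7441, mostly Ctsk, with Ptprc and Cd3e at 0. The part of these markers in the RAB values was not tested. Of 17 cell division genes, 17 were lower with NU7441 (median log2 fold change -1.38), where 16.6% of all genes tested were lower. Their summed level was 1602 to 1783 CPM in DMSO and 645 to 750 CPM in NU7441. The part of this difference in the RAB values that follow was not tested, and in bulk RNA fewer cells of a kind and less RNA per cell cannot be told apart.

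Of 47 members with enough counts to test, 7 rose with NU7441, namely Rab36, Rab2b, Rab6b, Rab11b, Rab5b, Rab9 and Rab31, and Rab27a fell. Called members were 17.0% of those tested, where 30.7% of all 13784 genes tested were called, at an adjusted p under 0.05 in the quasi-likelihood test of edgeR. The higher members were 14.9% of those tested against 14.1% of all genes, and the lower member was 2.13% against 16.6%. The median log2 fold change was 0.03 over the members and 0.01 over all genes, and the median of its absolute size was 0.07 and 0.12. The range over tested members ran from -0.37 to 0.36, so that 0 members differed by 2-fold or more. Values of the 3 samples of each group did not overlap in 15 members (31.9%, with 13 above and 2 below DMSO), where 42.8% of all genes tested had groups that did not overlap. The tested members were not rare transcripts for the most part: their median level in DMSO was 41.3 CPM against 20.7 CPM for all genes tested.

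Of the 39 members that were not called, 33 had a 95% interval that lay within a rise of 25% and the same fold downwards. The other 6, whose intervals were wider, were Rab7l1, Rab4a, Rab3a, Rab15, Rab25 and Rab26, all under 7 CPM in every sample. An unadjusted p under 0.05 that did not hold after adjustment was found for 6 of the 39: Rab21, Rab34, Rab23, Rab8b, Rab22a and Rab13. Rab21, which acts in integrin endocytosis, had the lowest adjusted p of these. It was at 51.0, 51.5 and 51.9 CPM in DMSO and 49.7, 46.8 and 48.1 CPM in NU7441, a log2 difference of -0.09 ± 0.04 (SE, edgeR adjusted p = 0.0577). All its NU7441 samples lay below all DMSO samples. Rab21 passed as lower in 4 of the 13 alternative analyses, among them library-size scaling (adjusted p = 0.0345), counts divided by 2 (0.0485) and the fit without NU7441 sample 1 (0.0222). Rab22a and Rab8b passed as higher in 3 alternatives each and Rab34 in 2, Rab13 passed as higher in 1 and Rab23 as lower in 1. The 10 members left untested never exceeded 18 counts in a sample: Rab20, Rab33a, Rab39, Rab17, Rab19, Rab44, Rab37, Rab3c, Rab38 and Rab9b.

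**Figure D1:**
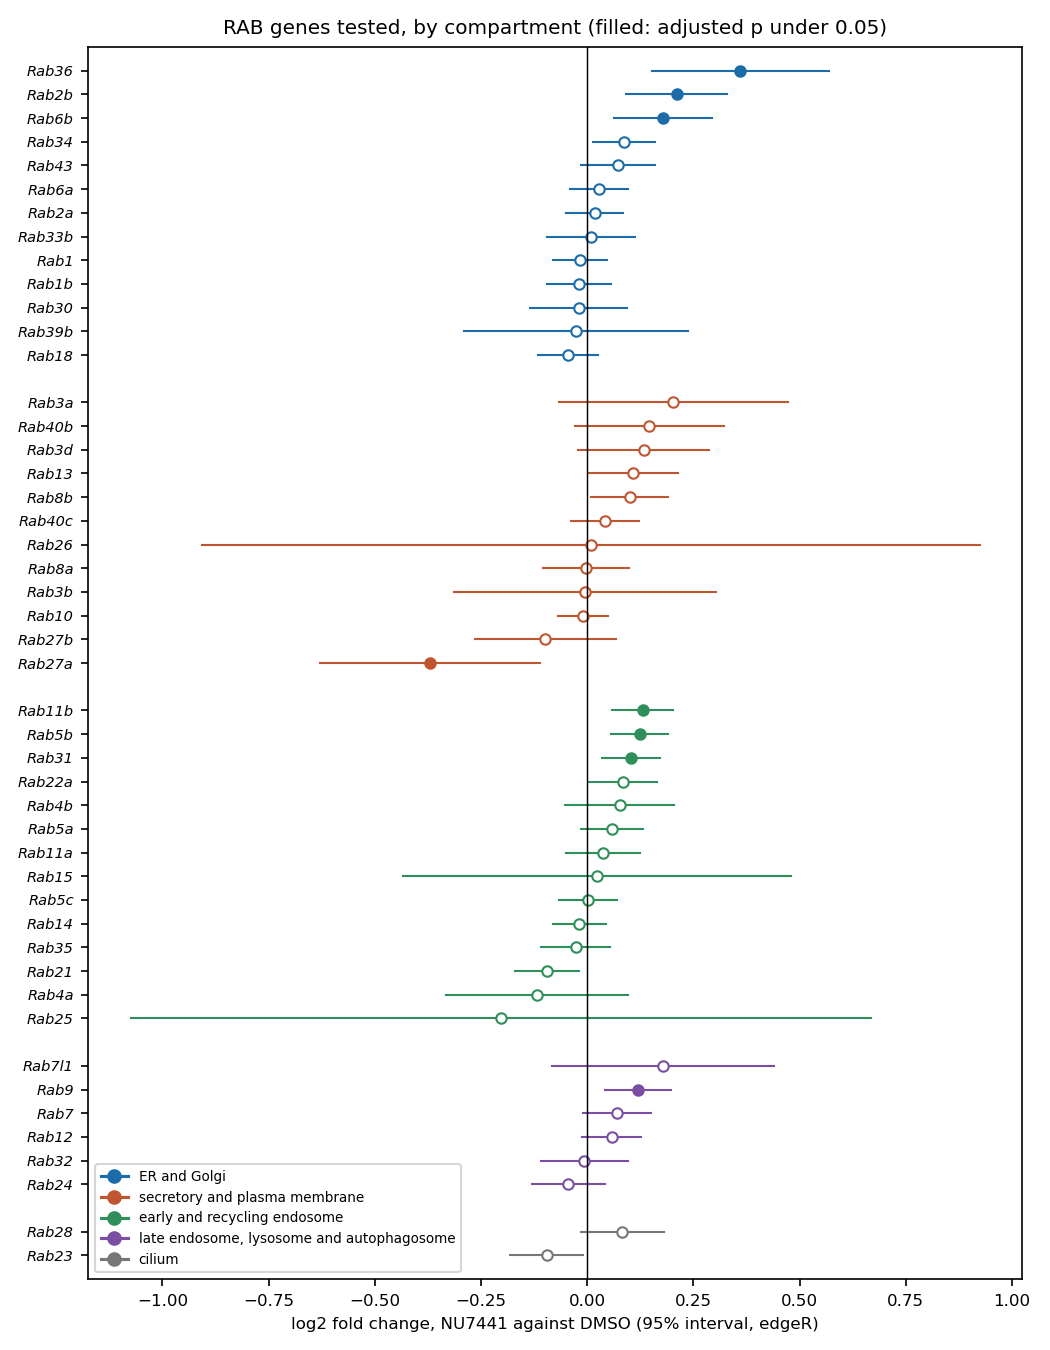
Log2 fold change of each tested RAB gene, NU7441 against DMSO (x axis), with its 95% interval from edgeR, grouped and coloured by compartment; filled points have an adjusted p under 0.05. The 8 filled points are 7 to the right and Rab27a to the left, all between -0.37 and 0.36.

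Taken over the family, the summed level was 2580, 2553 and 2572 CPM in DMSO and 2648, 2580 and 2637 CPM in NU7441. NU7441 sample 2 stood level with the highest DMSO sample, so that the groups met at that point. The family made up 0.257% of all gene counts in DMSO. By summed RPKM, the deposited value per length, the endoplasmic reticulum and Golgi members held 35.7% ± 0.3 (SD, n = 3) of the family in DMSO and 35.2% ± 0.3 in NU7441. The early and recycling endosome members held 28.3% ± 0.2 and 28.3% ± 0.2, the late endosome and lysosome members 22.5% ± 0.7 and 22.9% ± 0.4, the secretory members 10.5% ± 0.2 and 10.5% ± 0.1, and the cilium members 3.06% ± 0.17 and 3.07% ± 0.08. The division of RAB transcripts among compartments thus differed by less than 0.5 percentage points between the groups. The order of the compartments depends on the deposited gene lengths, which are taken up further on. By mean summed CPM, which uses no length, the secretory members stood at 343 in DMSO and 347 in NU7441. The late endosome and lysosome members were below them at 295 and 306.

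Members of the endoplasmic reticulum and Golgi were the largest transcript pool. Of 15 members 13 were tested, 3 rose and 0 fell (median log2 fold change 0.02). The called members, all higher, were 23.1% of those tested, against 14.1% of all genes higher and 30.7% called. Rab36, a Golgi-associated RAB that binds RILP-family effectors, had the largest rise of the family. It was at 7.34, 7.58 and 9.28 CPM in DMSO and 11.4, 10.2 and 9.62 CPM in NU7441. The highest DMSO sample lay just under the lowest NU7441 sample. The log2 fold change was 0.36 ± 0.10 (SE, edgeR adjusted p = 0.0112), a rise of 28.4% with a 95% interval of 11.1% to 48.4%. The adjusted p of Rab36 was 0.0608 when DMSO sample 1 was left out, 0.0614 when DMSO sample 2 was and 0.0532 when NU7441 sample 1 was, so that each of these ends the call.

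Rab2b and its close relative Rab2a act in traffic between the endoplasmic reticulum and the Golgi and in Golgi structure. Rab2b was at 15.9, 14.5 and 15.9 CPM in DMSO and 17.7, 17.8 and 18.1 CPM in NU7441, with all NU7441 samples above all DMSO samples. Its log2 fold change was 0.21 ± 0.06 (SE, edgeR adjusted p = 0.00945), a rise of 15.7% (95% interval 6.58% to 25.7%), and it was called in all 13 alternative analyses. In the annotation 195 exon bases of Rab2b overlap Tox4 on the opposite strand, which was not called (log2 fold change 0.08 ± 0.04, adjusted p = 0.105). Counted separately, 2469 exon bases overlap Gm43766, also on the opposite strand, which has no values of its own here. No source used here states whether reads were counted by strand. Rab2a, far more abundant, was at 216, 217 and 216 CPM in DMSO and 228, 215 and 214 CPM in NU7441, a log2 difference of 0.02 ± 0.03 (adjusted p = 0.726) whose sign turned with library-size scaling. Only NU7441 sample 1 lay above the DMSO samples.

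Rab6b and Rab6a serve retrograde traffic within the Golgi and to the endoplasmic reticulum, and Rab6b is best known from neurons. Rab6b was at 27.5, 27.8 and 29.5 CPM in DMSO and 29.4, 32.0 and 34.7 CPM in NU7441. The groups overlapped, since NU7441 sample 1 lay just below DMSO sample 3. The log2 fold change was 0.18 ± 0.05 (SE, edgeR adjusted p = 0.0200). In 4 of the 6 analyses that left out a sample the call was lost, with an adjusted p of 0.0709 (DMSO sample 1), 0.0736 (DMSO sample 2), 0.0514 (NU7441 sample 2) and 0.125 (NU7441 sample 3, log2 fold change 0.12). Rab6a was at 95.5, 99.7 and 96.8 CPM in DMSO and 101, 97.8 and 99.5 CPM in NU7441 and was not called (0.03 ± 0.03, adjusted p = 0.556). It shares 708 exon bases with Mrpl48 on the opposite strand, which was called (0.13 ± 0.05, adjusted p = 0.0451).

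Rab1 and Rab1b, which carry cargo from the endoplasmic reticulum to the Golgi, were among the most abundant members. Rab1 was at 226, 223 and 226 CPM in DMSO and 224, 217 and 226 CPM in NU7441. Rab1b was at 144, 136 and 142 CPM in DMSO and 142, 131 and 142 CPM in NU7441. The groups overlapped in both genes. The 95% intervals of their differences ran from -5.46% to 3.20% for Rab1 and from -6.39% to 3.95% for Rab1b. The other members of this compartment, Rab18, Rab30, Rab33b, Rab34, Rab39b and Rab43, had log2 differences between -0.05 and 0.09, and none of these 6 was called by edgeR.

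Rab27a, the RAB called lower, is a secretory member. Of 15 members 12 were tested, 0 rose and 1 fell (median log2 fold change 0.03). The called share was 8.33% against 30.7% of all genes. Rab27a, which docks secretory granules, lysosome-related organelles and exosome-forming bodies at the plasma membrane, was at 3.85, 3.88 and 3.98 CPM in DMSO and 3.32, 2.79 and 2.95 CPM in NU7441. All NU7441 samples lay below all DMSO samples. The log2 fold change was -0.37 ± 0.12 (SE, edgeR adjusted p = 0.0304), a change of -22.7% with a 95% interval of -35.4% to -7.47%. In the annotation Rab27a shares 149 exon bases with Gm27186 on the same strand, which has no values of its own here. This was a low transcript whose call held in 1 of the 6 analyses that left out a sample, that without NU7441 sample 1. Its adjusted p was 0.0595, 0.0608 and 0.0893 with DMSO sample 1, 2 or 3 left out, and 0.0801 and 0.0811 with NU7441 sample 2 or 3 left out.

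Rab27b, the close relative of Rab27a, was at 10.5, 9.23 and 9.72 CPM in DMSO and 9.66, 8.71 and 9.19 CPM in NU7441. The groups overlapped and the log2 difference of -0.10 ± 0.08 was not called (edgeR adjusted p = 0.375). Whether the 2 genes differed in their response was not tested. The exocytic RABs Rab8a, Rab8b, Rab10 and Rab13, which carry post-Golgi cargo to the surface, were not called. Rab10, the most abundant of the compartment, was at 172, 173 and 175 CPM in DMSO and 170, 173 and 174 CPM in NU7441, with a log2 difference of -0.01 ± 0.03. The Rab3 genes, known for regulated exocytosis, were low: Rab3d lay at 9.18 to 10.5 CPM in DMSO and 10.7 to 11.1 CPM in NU7441, Rab3a at 3.79 to 4.68 and 4.32 to 5.67, and Rab3b at 2.95 to 3.31 and 2.54 to 3.52. None of these 3 was called.

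**Figure D2:**
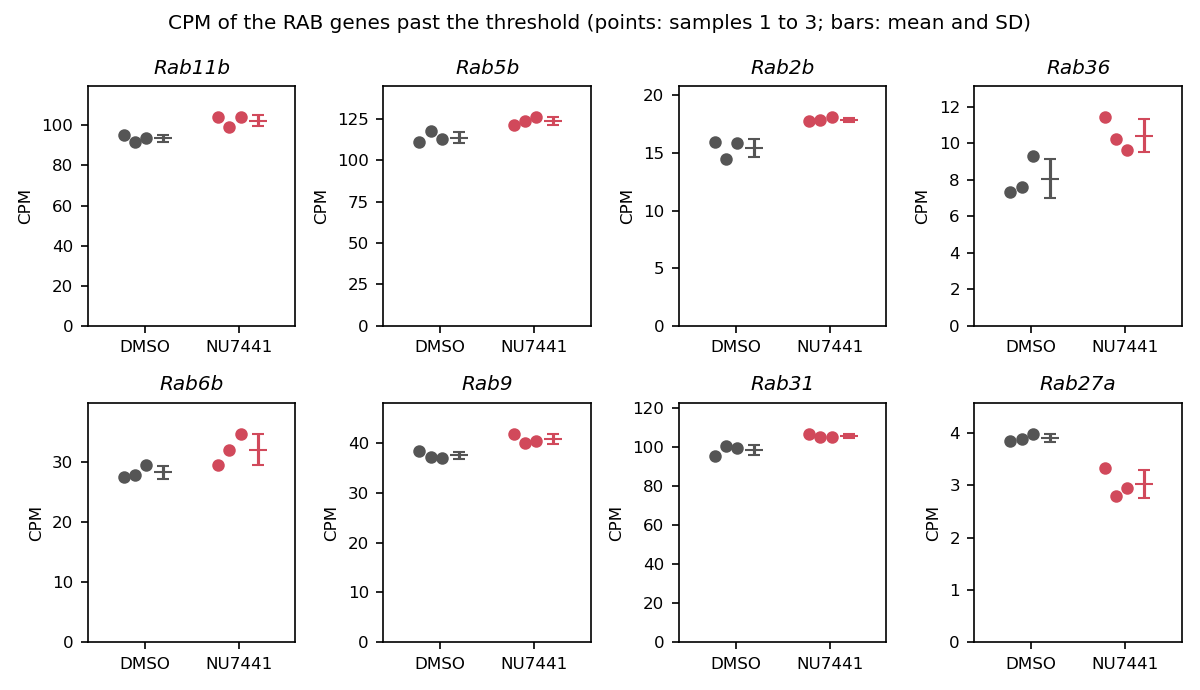
CPM (y axis, from 0) of the 8 RAB genes with an adjusted p under 0.05, in DMSO and NU7441; points are samples 1 to 3 and bars the mean and SD. The groups meet only in Rab6b, where the lowest NU7441 sample (29.4) lies under the highest DMSO sample (29.5), and of these 8 genes Rab27a is the one that is lower with NU7441.

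Of 16 early and recycling endosome members 14 were tested, 3 rose and 0 fell (median log2 fold change 0.03). The higher share was 21.4% against 14.1% of all genes, and the called share, also 21.4%, stood against 30.7%. Rab11b, which with Rab11a returns receptors and integrins to the surface through recycling endosomes, was at 95.2, 91.8 and 93.4 CPM in DMSO and 104, 99.2 and 104 CPM in NU7441. The groups did not overlap. The log2 fold change was 0.13 ± 0.03 (SE, edgeR adjusted p = 0.00774), a rise of 9.47% (95% interval 4.2002% to 15.01%), and it was called in all 13 alternative analyses. Rab11b shares 329 exon bases with Gm17251 on the opposite strand, which has no values of its own here. Rab11a was at 51.8, 48.1 and 48.9 CPM in DMSO and 53.2, 49.8 and 49.6 CPM in NU7441 and was not called (0.04 ± 0.04, adjusted p = 0.547). Rab25, the epithelial member of the subfamily, was near the limit of counting at 0.184 to 0.460 CPM over all samples and was not called.

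Rab5a, Rab5b and Rab5c drive fusion of early endosomes. Rab5b was at 111, 117 and 113 CPM in DMSO and 121, 124 and 126 CPM in NU7441, with all NU7441 samples above all DMSO samples. Its log2 fold change was 0.12 ± 0.03 (SE, edgeR adjusted p = 0.00826), a rise of 8.92% (95% interval 3.91% to 14.2%), and it was called in 12 of 13 alternative analyses and lost without DMSO sample 1 (adjusted p = 0.0525). Rab5a was at 62.5, 60.5 and 60.0 CPM in DMSO and 64.4, 62.9 and 63.4 CPM in NU7441; the groups did not overlap, but the log2 difference of 0.06 ± 0.03 was not called (adjusted p = 0.215). Rab5c was at 109, 104 and 106 CPM in DMSO and 108, 104 and 106 CPM in NU7441, with an interval of the difference from -4.55% to 4.98%. Differences between the responses of these relatives were not tested.

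Rab31 acts between the trans-Golgi network and endosomes. It was at 95.7, 101 and 99.7 CPM in DMSO and 107, 105 and 105 CPM in NU7441, with no overlap. The log2 fold change was 0.10 ± 0.03 (SE, edgeR adjusted p = 0.0245), and the call was lost with library-size scaling (0.0767). It was also lost when DMSO sample 1 (0.126), NU7441 sample 1 (0.0644) or NU7441 sample 3 (0.0525) was left out. Its near relative Rab22a was at 43.0, 41.0 and 40.0 CPM in DMSO and 44.7, 43.7 and 43.1 CPM in NU7441 and was not called (0.09 ± 0.04, adjusted p = 0.103). Rab4a, Rab4b, Rab14, Rab15 and Rab35, which serve recycling and endosome sorting, had log2 differences between -0.12 and 0.08, and none of these 5 was called.

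Late endosome, lysosome and autophagosome members gave 1 rise among 6 tested of 9, with 0 lower (median log2 fold change 0.06), a higher share of 16.7% against 14.1% of all genes. Rab9, which returns mannose 6-phosphate receptors from late endosomes to the Golgi, was at 38.3, 37.2 and 36.8 CPM in DMSO and 41.8, 39.9 and 40.3 CPM in NU7441. The groups did not overlap. The log2 fold change was 0.12 ± 0.04 (SE, edgeR adjusted p = 0.0202), a rise of 8.63% (95% interval 2.98% to 14.6%). The call was lost with library-size scaling (0.0637) and with DMSO sample 2 (0.0531), DMSO sample 3 (0.0775) or NU7441 sample 1 (0.0698) left out. Rab7, the main RAB of late endosomes and lysosomes, was at 95.1, 103 and 102 CPM in DMSO and 102, 105 and 108 CPM in NU7441, which overlapped, and was not called (0.07 ± 0.04, adjusted p = 0.188). Rab12, Rab24, Rab32 and Rab7l1 were not called either, with log2 differences between -0.04 and 0.18. In the annotation Rab24 shares 1258 exon bases with Prelid1 on the opposite strand, which was not called (-0.05 ± 0.03, adjusted p = 0.301).

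Neither cilium member passed the test. Rab28 was at 46.2, 40.6 and 44.5 CPM in DMSO and 47.6, 46.8 and 44.7 CPM in NU7441 (log2 difference 0.08 ± 0.05, SE). Rab23, a regulator of hedgehog signalling, was at 45.5, 42.6 and 41.5 CPM in DMSO and 39.5, 40.3 and 41.6 CPM in NU7441 (-0.10 ± 0.04, edgeR adjusted p = 0.0904). The groups overlapped in both.

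Within subfamilies, the balance between close relatives differed by small amounts. These shares restate the same counts per length and have no test of their own. Rab2b made up 5.21%, 4.75% and 5.19% of RAB2 transcripts by RPKM in DMSO and 5.49%, 5.82% and 5.92% in NU7441, so that Rab2a remained near 94% to 95% in every sample. Rab5b made up 27.7% ± 1.0 (SD, n = 3) of RAB5 in DMSO and 29.2% ± 0.6 in NU7441, while Rab5c stayed the main form at 52.3% ± 0.9 and 50.6% ± 0.6. Rab11b was 41.7% ± 0.5 of RAB11 in DMSO and 43.3% ± 0.7 in NU7441, and Rab6b was 16.9% ± 0.6 and 18.5% ± 1.3 of RAB6. Rab27a averaged 48.8% ± 1.9 in DMSO and 44.0% ± 1.0 in NU7441 of RAB27. Which of the RAB27 pair is the larger depends on gene length: by deposited RPKM over all samples Rab27b (1.00) was above Rab27a (0.874), and with the annotated exon lengths described next Rab27a (0.670) and Rab27b (0.667) were nearly equal. The shares of Rab1 in RAB1, 52.5% ± 0.6 and 52.6% ± 0.6, differed by less than their spread.

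**Figure D3:**
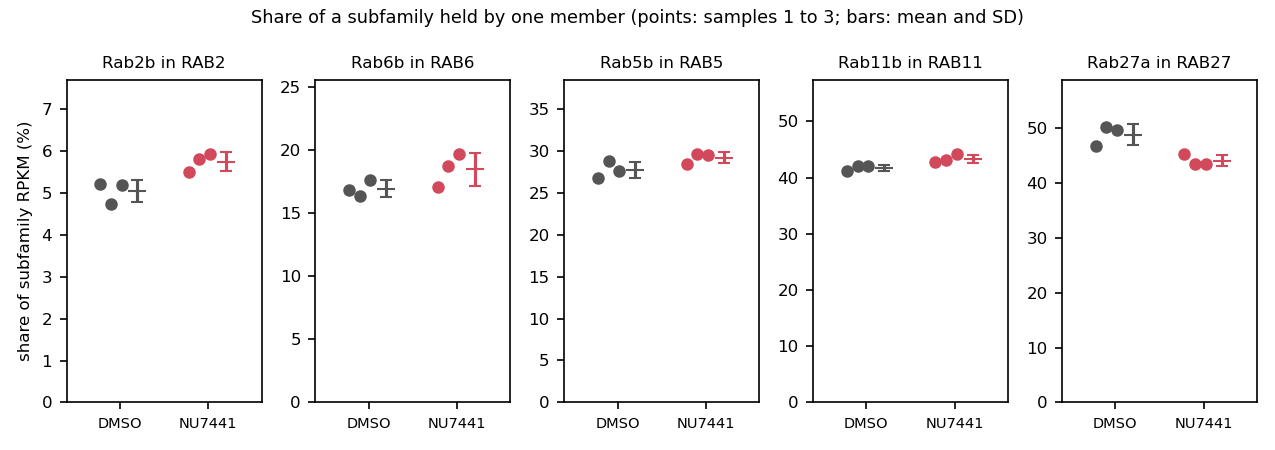
Share of a subfamily's summed RPKM (y axis, %, from 0) held by Rab2b, Rab6b, Rab5b, Rab11b and Rab27a in DMSO and NU7441; points are samples 1 to 3 and bars the mean and SD. The shares of the first 4 are higher on average with NU7441 by 0.697 to 1.64 percentage points, and that of Rab27a is lower by 4.76.

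The order of levels can be read only per length, from the deposited RPKM. Rab7 was listed highest at 121 ± 5.0 RPKM (SD, n = 3) in DMSO and 125 ± 2.5 in NU7441. Rab2a followed at 79.6 ± 0.4 and 78.9 ± 3.9, then Rab1 at 64.1 ± 0.8 and 62.0 ± 1.9, Rab1b at 57.9 ± 2.1 and 55.9 ± 3.1 and Rab5c at 51.1 ± 1.4 and 50.1 ± 1.8. These 5 held 41.5% of the family's summed RPKM in DMSO, and 26 members reached 10 RPKM there. The first place of Rab7 depends on a gene length: the deposited length of 624 bases is 0.239 times its merged exons in GENCODE M21, 2610 bases. With the annotated length, an alternative chosen after seeing the data, Rab7 came to 29.4 RPKM and sixth in order and Rab2a to 76.5 RPKM and first. However, 624 bases is exactly the length of the Rab7 coding sequence, stop codon included. The deposited row ends at the stop codon, so it leaves out the exon bases that follow. If reads were counted over that row alone, dividing them by 2610 bases sets the level of Rab7 too low. The sixth place is therefore not a like-for-like level. The same alternative left 15 of 57 members at their place, since for 11 members the deposited length was under 0.5 of the annotated one. Levels of different RAB genes are therefore uncertain, while the comparison of a gene between groups does not use its length.

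**Figure D4:**
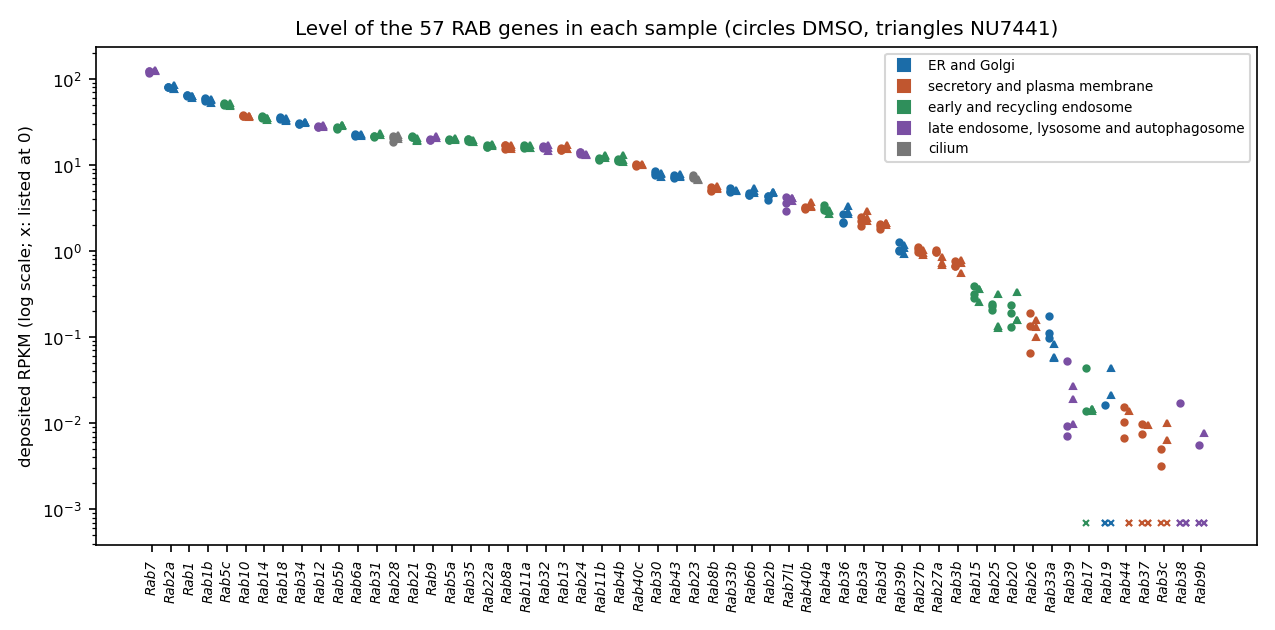
Deposited RPKM (y axis, log scale; crosses at the bottom are samples listed at 0) of the 57 RAB genes in each sample, in order of their mean, with DMSO as circles and NU7441 as triangles. Levels span from Rab7, at 121 in DMSO, to members with single samples above 0, and for most genes the circles and triangles lie together.

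The proteins that load, unload and read RABs were checked as lists. Of 146 tested partner genes 31 rose and 13 fell, 30.1% in all against the 30.7% of all genes. Over all genes 14.1% were higher and 16.6% lower, so the similar combined shares do not mean a similar split by direction. In the prenylation and GDI cycle, 3 of 10 rose and 3 fell, 60% of this short list against 30.7% of all genes. Rabac1, a membrane factor that releases RABs from GDI, was at 49.22, 50.01 and 50.79 CPM in DMSO and 56.1, 57.6 and 61.4 CPM in NU7441 (log2 fold change 0.22 ± 0.04, SE; edgeR adjusted p = 0.000518). Chm, the escort protein that presents RABs for prenylation, rose by 0.14 ± 0.04 (0.0141), a call lost without DMSO sample 3 (0.0634) or NU7441 sample 2 (0.0658). Both subunits of the enzyme that attaches the lipid to the cysteines shown above were lower: Rabggta had a log2 fold change of -0.27 ± 0.09 (adjusted p = 0.032) and Rabggtb of -0.12 ± 0.04 (0.0226). The call of Rabggtb was lost with upper-quartile scaling (0.0623) and without DMSO sample 3 (0.098) or NU7441 sample 3 (0.052). The third that fell was Yipf5. Rabggta and Yipf5 were named after their values were seen, and neither was followed through the alternative analyses.

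Among 42 tested exchange factors 7 rose and 1 fell, 19.0% in all against 30.7% of all genes (14.1% higher and 16.6% lower). Rab3ip, which loads Rab8 on the path to the primary cilium, was at 12.7, 11.7 and 11.8 CPM in DMSO and 15.6, 15.9 and 15.6 CPM in NU7441 (log2 fold change 0.38 ± 0.06, SE; edgeR adjusted p = 0.000201). Its close relative Rab3il1 rose by 0.21 ± 0.04 and the Rab5 exchange factor Rin2 by 0.18 ± 0.04. Trappc5, a subunit of the TRAPP complexes that load Rab1, was lower (-0.23 ± 0.05, adjusted p = 0.003). Rab8a, Rab8b and Rab1 themselves were not called, as given above. Of 35 tested genes on the list of GTPase-activating proteins 7 rose and 5 fell, 34.3% in all against 30.7% of all genes. Among the higher were Rabgap1l (0.19 ± 0.04) and Tbc1d23 (0.19 ± 0.03). Tbc1d23 carries the TBC domain of these proteins but is known as a Golgi tethering factor. Among the lower were Tbc1d4 (-0.21 ± 0.04) and Tbc1d16 (-0.22 ± 0.06).

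Of 51 tested effectors 13 rose and 3 fell, 31.4% in all against 30.7% of all genes (14.1% higher and 16.6% lower). Ehbp1, which links Rab8 and Rab10 to actin and EHD proteins, was at 83.4, 86.0 and 82.2 CPM in DMSO and 106, 101 and 104 CPM in NU7441 (log2 fold change 0.30 ± 0.03, SE; edgeR adjusted p = 7.62e-06). Appl2, a Rab5 effector of signalling endosomes, rose by 0.34 ± 0.04. Fyco1, which joins Rab7 to kinesin, rose by 0.20 ± 0.04, and the Golgi tether Golgb1 by 0.15 ± 0.03. Mlph, an effector of Rab27a named after its values were seen, rose by 0.89 ± 0.30 (adjusted p = 0.0355) at only 0.279 to 0.651 CPM over all samples. Mlph was not followed through the alternative analyses. Lrrk2, a kinase that phosphorylates several RABs, had a log2 fold change of 0.10 ± 0.04 (0.0466), a call lost in 7 alternatives, with adjusted p up to 0.156. Ran, the nuclear transport GTPase listed with the RAB-like proteins, fell by 0.48 on the log2 scale (adjusted p = 2.21e-08).

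**Figure D5:**
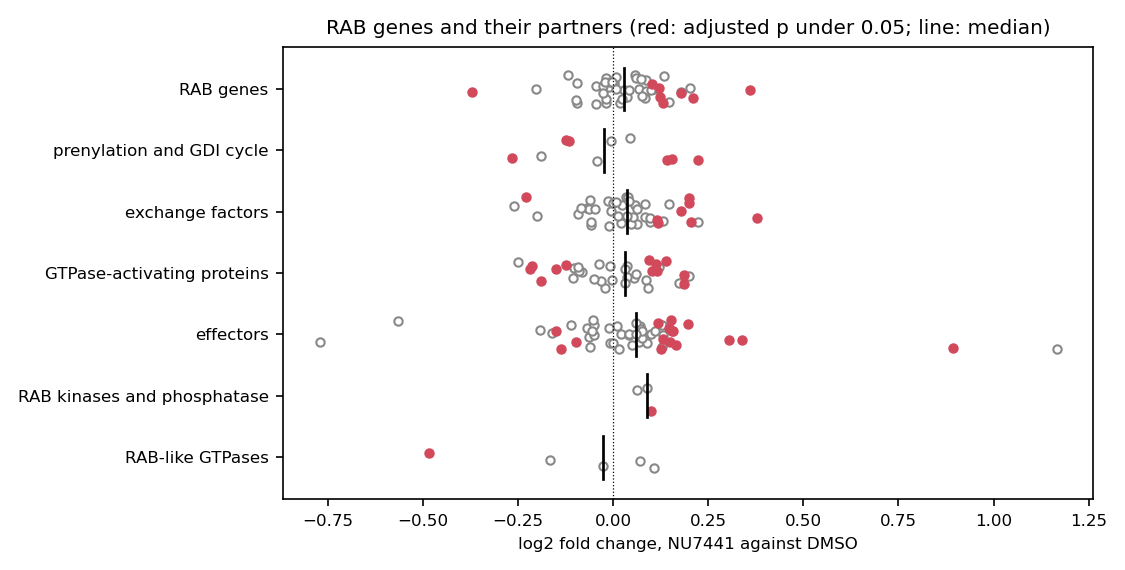
Log2 fold change, NU7441 against DMSO (x axis), of each tested RAB gene and of each tested gene in 6 partner lists (y axis); red points have an adjusted p under 0.05 and the black line is the list median. The medians lie between -0.03 and 0.09, and the red RAB points lie between -0.37 and 0.36.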

How the data were processed

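RNA-seq counts of 6 samples were compared, DMSO (n = 3) against NU7441 (n = 3). Per the submitters' processing notes, bcl2fastq, TopHat2 2.0.6, HTSeq and the mm10 build were used, with no settings given. Per the file headers, the authors deposited gene counts, gene lengths and RPKM values in 1 table. All deposited counts are even (0 odd values), so each read pair may have been counted as 2; counts divided by 2 were an alternative. The members and gene lists were chosen with earlier results of these data known.

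In R 4.3.3, edgeR 4.0.16 was run with filterByExpr (count 10, total 15), TMM factors and a two-sided quasi-likelihood test over 13784 genes. Adjusted p-values are Benjamini-Hochberg, with a threshold of 0.05. CPM uses the scaled library sizes. The SE is the log2 fold change divided by the square root of F. The biological coefficient of variation was 5.6%. Deposited RPKM values were used for levels and shares, and no test was run on them. In counts divided by 2, every pair of samples in a group differed by more than counting noise, so none was treated as a repeat deposit of another; separate libraries of 1 RNA could differ in this way too. Named in full were, per compartment, the called members, the 3 with the highest RPKM and their subfamilies, and up to 4 called genes with the lowest adjusted p in each partner list; other names were added as list members or near the threshold. Coding ends and exon lengths came from GENCODE M21 on mm10. The procedure was tested on simulated data, drawn as independent samples at the fitted spread, with the outcome not reported here. The smallest change put in was a rise of 25% or the same fold downwards. Most called RAB genes changed by less than that, so the simulation does not cover them. The simulation copied neither the even counts nor the pooling, so it cannot show how these affect the calls. DESeq2 1.42.0, other scalings, no filter, a robust fit, a replicate block and leaving out each sample were the alternatives. A total of 20 members share exon bases with another annotated gene, 8 of them with a gene in the table, and no source used here states whether counting used strand. The largest overlaps were 4164 bases in Rab43, 2469 in Rab2b, 1280 in Rab4b and 1258 in Rab24. In Rab43 and Rab4b the other gene (Gm45140 and Gm21983) lies on the same strand and has no values of its own here. The 4 RAB pseudogenes in the annotation have no row in the table. Some values of single genes on the lists are not reported here.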

Additional observations from a re-analysis of the deposited data

How the results depend on the processing

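All 8 called RAB genes kept the sign of their log2 fold change in the 13 alternative analyses, and Rab2b and Rab11b were called by each of them. DESeq2, the robust fit and testing without a filter each called 7 RAB genes higher and 1 lower. Library-size scaling gave 5 higher and 3 lower, upper-quartile scaling 11 higher and 1 lower, and counts divided by 2 gave 7 higher and 2 lower. Leaving out 1 sample gave 4 to 6 higher and 0 to 2 lower. The lower count was 0 without any of 5 samples and 2 without NU7441 replicate 1. The higher count was 4 without DMSO replicate 2 or NU7441 replicate 1. Counts over all genes moved too, from 1941 higher and 2290 lower in the main fit. They were 1494 to 1755 higher and 1886 to 2155 lower without 1 sample. Library-size scaling gave 1553 and 2569 over all genes, and upper-quartile scaling 2488 and 1919. Of all calls, 45.9% were higher, against 37.7% with library-size scaling and 56.5% with upper-quartile scaling, and no alternative moved the median of all genes by more than 0.03 on the log2 scale. Signs turned only in members that were not called. Of 47 tested members, 29 had a positive log2 difference in the main fit, 25 with library-size scaling and 37 with upper-quartile scaling. The median over the members was 0.028, 0.009 and 0.054 in that order, and over all genes 0.005, -0.014 and 0.031. Among the members described in full, Rab2a came to -0.0015 and Rab5c to -0.018 with library-size scaling. With upper-quartile scaling Rab1 came to 0.0079 and Rab1b to 0.0060. Without 1 sample the log2 difference ranged from -0.030 to 0.0015 for Rab1, -0.044 to 0.018 for Rab1b, -0.012 to 0.033 for Rab2a, -0.015 to 0.018 for Rab5c and -0.763 to 0.028 for Rab25. The cause of these changes was not tested.

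With the replicate number as a block, 10 RAB genes were higher and 2 lower (adding Rab22a, Rab34 and Rab8b higher and Rab21 lower), and over all genes 2417 were higher and 2703 lower against 1941 and 2290. Deviations of samples with the same number correlated at 0.134, 0.088 and 0.047. Each sample correlated best with its own number, a hint from the data only, and the numbers were not taken to pair the samples. With 3 samples a group, the least abundant tested RAB genes gave wide intervals: the 95% interval of Rab25 ran from -52.5% to 58.9%.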
